A study of Homo sapiens with 40 samples.

Results

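The genes described here are 46 genes of the early secretory pathway in RKO, a human cell line long established from a colorectal carcinoma. They are 8 subunits of the COPI coat, 10 of the COPII coat, 4 ARF GTPases with the exchange factor GBF1, 11 golgins and related coiled-coil proteins, 7 subunits of the COG complex, 3 cargo receptors and 2 Golgi stacking proteins. They were taken by symbol from a count table of 19962 genes, by a list made with earlier results of these data known. All 46 passed the filter on low counts and were among the 11428 genes tested.

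The RKO cells carried a doxycycline-inducible Cas9 with GFP. From them 3 lines were made by lentiviral transduction and sorting for BFP, each with guide RNAs against a different target. The sgAAVS1 line has guides to a control locus, the sgIGF2BP2 line to IGF2BP2 and the sgIGF2BP3 line to IGF2BP3, 2 RNA-binding proteins of the IGF2BP family. Each line was treated with doxycycline (Dox), which induces Cas9, at 250 ng/mL for 72 h, or with DMSO. Separately, sgIGF2BP2 cells received siControl or siIGF2BP2 and sgIGF2BP3 cells received siControl or siIGF2BP3, as siRNA pools at 75 nM for 48 h; the treatment label of these 4 groups is "no treatment", read here as neither Dox nor DMSO. All 10 groups were exposed to the nucleotide analogue s4U at 250 µM for 2 h, and each has 4 libraries of polyadenylated RNA. Old and newly made RNA are counted together. The replicates are wells of cells, so p-values measure only the spread between these samples, which may be technical. Differences between the siIGF2BP2 and siIGF2BP3 effects are also differences between the 2 lines they were measured in, and target and line cannot be told apart.

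COPII coats form on the endoplasmic reticulum (ER), where the GTPase SAR1 recruits the inner coat of SEC23 and SEC24 and the outer cage of SEC13 and SEC31. SEC24 binds cargo, directly or through receptors such as LMAN1 with its partner MCFD2, which carry glycoproteins including coagulation factors. COPI coats are recruited to Golgi membranes by ARF GTPases, which GBF1 loads with GTP, and return proteins to the ER and between cisternae. Arriving vesicles are caught by golgins, long coiled-coil proteins anchored on Golgi membranes, and by the COG complex, and the stacking proteins GORASP1 and GORASP2 link cisternae. RAB6A is a Golgi GTPase of the retrograde routes; it recruits BICD2, the adaptor that couples vesicles to dynein, and binds golgins such as GCC2 and TMF1. Genes of this pathway are known to be induced in ER and Golgi stress, through short promoter elements with an ACGTG core.

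Promoter stretches of 5 members are shown because they carry such elements and belong to several of the classes compared below. They come from RefSeq (GRCh38.p14) and are written 5′ to 3′ on the gene's strand, with the element in capitals. GOLGA1 and GOLGA5 hold TGACGTGGC, in which the ER stress core TGACGTG and the Golgi stress element ACGTGGC overlap. The stretches shown hold TGACGTG in SEC13 and ACGTGGC in SAR1A and COPG1; elsewhere in its windows SEC13 also holds ACGTGGC. In GOLGA5, SEC13 and SAR1A the capitals read as the reverse complement, because the element lies on the opposite strand. The stretches are chr9:124941232-124941291 (minus strand) for GOLGA1, chr14:92794100-92794159 (plus) for GOLGA5, chr3:10321222-10321281 (minus) for SEC13, chr10:70170682-70170741 (minus) for SAR1A and chr3:129249546-129249605 (plus) for COPG1.
GOLGA1: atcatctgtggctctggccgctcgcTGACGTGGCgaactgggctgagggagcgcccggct
GOLGA5: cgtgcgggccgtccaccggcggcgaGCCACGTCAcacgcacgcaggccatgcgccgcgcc
SEC13: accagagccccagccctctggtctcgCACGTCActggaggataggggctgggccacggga
SAR1A: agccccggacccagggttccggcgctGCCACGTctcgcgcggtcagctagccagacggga
COPG1: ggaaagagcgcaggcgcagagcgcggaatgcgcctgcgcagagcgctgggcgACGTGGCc

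Promoter windows from 250 bases before to 50 bases after a gene's start were given for 41 of the 46 members, with 55 windows among them. Searched on both strands, TGACGTG was in the windows of 12 of 41 members (29.3%), against 3.28% of the 9135 tested genes with a window. ACGTGGC was in those of 15 of 41 members (36.6%), against 5.80% of the tested genes. The joined TGACGTGGC was in 5 members, ARF1, GOLGA1, GOLGA5, SEC23A and SEC24A (12.2%), against 0.536%. Counted over windows, TGACGTG was in 25.5% of the members' 55 windows and in 1.97% of all 35116, and ACGTGGC in 36.4% against 3.22%. The longer ER stress element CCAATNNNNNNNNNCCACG was in no member window and in 0.0769% of all windows. The cAMP response element TGACGTCA was in 2 members, GCC1 and TMF1. In all, 20 of 41 members held TGACGTG or ACGTGGC. These matches are a description of the letters in the windows.

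Total counts per library ran from 10018181 to 24822807, with a median of 13468792. Values are CPM, the usual count relative to the total of the library, with totals scaled by the trimmed mean of M-values. The targeted mRNAs fell in every targeted group: siIGF2BP3 left 14.6% of the control level of IGF2BP3, siIGF2BP2 left 27.9% of IGF2BP2, and Dox left 39.7% of IGF2BP2 in the sgIGF2BP2 line and 31.2% of IGF2BP3 in the sgIGF2BP3 line. IGF2BP3 also fell by 0.25 on the log2 scale with Dox in the sgIGF2BP2 line (edgeR adjusted p = 2.93e-06). Epithelial KRT8 and KRT18 (medians of 53.8 and 191 CPM) and intestinal CDX2 (19.3 CPM) were present. KRT19, CDH1 and VIL1 had a median of 0, and KRT20 and LGR5 were at 0 in all 40 libraries. Of the fibroblast markers COL1A1 was at 0.274 CPM and the others had a median of 0. Replicate 2 of sgIGF2BP2 with Dox and replicate 3 of siIGF2BP2 differed more from their own group than other libraries did, with chi-square values per gene of up to 16.3 and 6.4 against a median of 2.27 over 60 replicate pairs, so results that rest on them are also given without them.

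The level of the members, expressed per kilobase of exon so that genes can be compared, spanned 124.8-fold. The length counts all annotated exons of a gene, merged over its transcripts, so levels per kb depend on that annotation. ARF1, the GTPase that recruits COPI, was highest at 215 CPM per kb, followed by the lectin LMAN2 at 87.8 and ARF5 at 71.4. The lowest were the COG subunits COG6 (1.88) and COG8 (1.72) and the golgin GCC2 (1.88). Class medians per kb were 68.2 for the ARF genes with GBF1, 35.6 for the cargo receptors, 33.0 for COPI, 17.5 for the stacking proteins, 7.52 for the golgins, 6.92 for COPII and 2.7 for the COG complex. Across the 10 groups each member varied far less than the members differed among themselves. The highest group mean was 1.08 times the lowest for SEC24C and 1.69 times for BICD2, with a median over the members of 1.19 times.

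**Figure D1:**
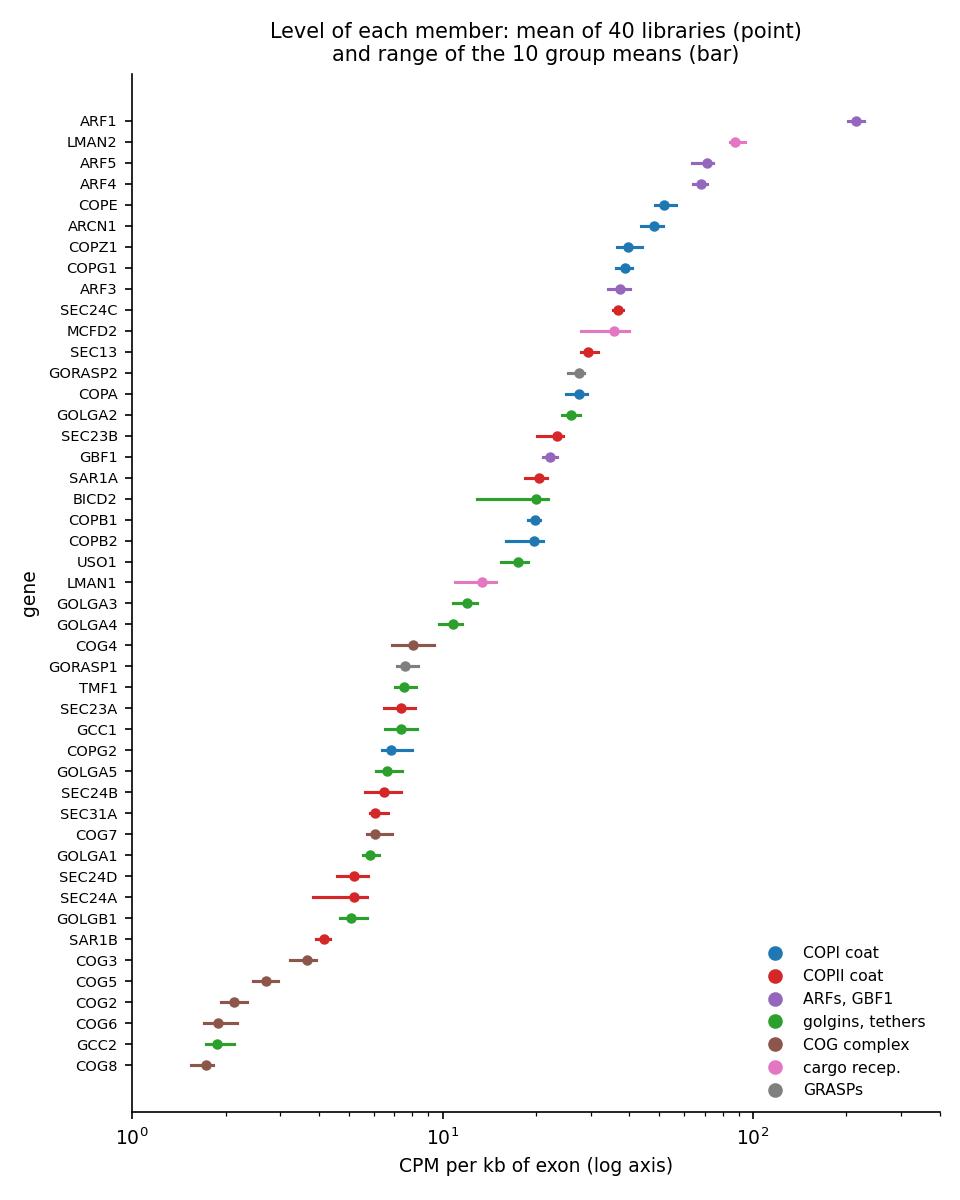
Level of each of the 46 members in CPM per kilobase of exon, on a log axis, sorted from high to low. Points are means over all libraries and bars span the lowest to the highest of the 10 group means. The bars are short against the 124.8-fold span of the points, and ARF1 stands highest at 215.

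With siIGF2BP3 the Golgi GTPase RAB6A was far lower than with siControl, while none of the 46 coat, tether and receptor genes passed the test. The smallest p belonged to the golgin GCC1, whose estimate was 0.20 on the log2 scale, followed by the GTPases SAR1A (−0.12) and ARF4 (−0.11) and the COPII subunit SEC24A (−0.17). RAB6A itself had 80.0, 85.6, 80.9 and 91.7 CPM with siControl and 37.0, 31.4, 30.9 and 34.3 CPM with siIGF2BP3. These groups lay far apart, at 84.6 ± 5.38 against 33.4 ± 2.82 CPM (SD, n = 4), which is 39.5% of control (log2 fold change −1.34, SE 0.050, edgeR quasi-likelihood adjusted p = 1.53e-33). RAB6A was singled out with its fall in these libraries already known, so its p-value describes that fall and is no independent test. In bulk RNA, fewer cells of a kind and less RNA per cell cannot be told apart. The test of each gene asks whether its adjusted p, by Benjamini-Hochberg over all 11428 genes, is below 0.05. By that rule 2.34% of all tested genes were called with siIGF2BP3, 0.936% higher and 1.40% lower, a share at which about 1 in 46 genes is called, so 0 of 46 is near the background. At an unadjusted p under 0.05 there were 8 members, 1 higher and 7 lower, beside 13.8% of all tested genes. DESeq2 called 1 member, GCC1, and a fit on these 2 groups alone called 3 (ARF4, GCC1 and SAR1A).

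GCC1, a golgin of the trans-Golgi network, had 33.6, 32.6, 31.3 and 32.3 CPM with siControl and 35, 38.5, 39.2 and 36.7 CPM with siIGF2BP3. The groups did not overlap, and the estimate was 0.20 (SE 0.060, 95% interval 0.08 to 0.32, edgeR adjusted p = 0.0535). Without siIGF2BP3 replicate 1, its lowest library, the adjusted p was 0.0354. GCC1 and ARF5 share 410 exon bases on opposite strands, and whether the counting used strand is not given in the sources used here. SAR1A, the GTPase that starts COPII assembly, had 150, 142, 137 and 141 CPM with siControl and 133, 126, 136 and 130 CPM with siIGF2BP3. Its groups did not overlap either, by a narrow margin (−0.12, SE 0.039, edgeR adjusted p = 0.101). ARF4, a GTPase of the early Golgi, had 185, 179, 176 and 179 CPM against 171, 162, 164 and 170 CPM (−0.11, adjusted p = 0.111). SEC24A, a cargo-binding COPII subunit, had 40.3, 39.9, 37.5 and 38.6 CPM against 35.5, 34.7, 32.6 and 36.4 CPM (−0.17, SE 0.064, adjusted p = 0.181). Its paralog SEC24D had 56.5, 56.4, 58.1 and 57.7 CPM against 51.9, 54.3, 50.6 and 50.4 CPM (−0.14, adjusted p = 0.214). ARF1 had 709, 718, 711 and 705 CPM against 676, 685, 664 and 690 CPM (−0.07, adjusted p = 0.273). For these 4 genes too every siIGF2BP3 library lay below every siControl library, and none passed the test. The genes named here were picked for their small p in this comparison, so separate groups are likely among them. How often groups were separate over all tested genes was not counted. COPG1, a COPI subunit (−0.09, adjusted p = 0.270), and SEC23B, of the COPII inner coat (−0.09, adjusted p = 0.279), had overlapping groups.

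The estimates of the 46 members with siIGF2BP3 ran from −0.17 to 0.20 with a median of −0.034, beside a median of 0.0015 over all tested genes. 13 were above 0, beside 5794 of all 11428 tested genes. The precision was a median SE of 0.0488, and all 95% intervals lay between −0.29 and 0.32, so no member interval reached the size of the RAB6A change. Of the genes for proteins that RAB6A binds, the dynein adaptor BICD2 was at −0.0042 with a 95% interval of −0.09 to 0.08. TMF1 was at −0.08 (adjusted p = 0.573) and GCC2 at −0.07 (adjusted p = 0.774). Class medians were −0.060 for COPII, where 1 of 10 members was above 0, −0.055 for the ARF genes with GBF1, −0.030 for COPI, −0.026 for COG, −0.024 for the golgins, −0.010 for the cargo receptors and 0.040 for the stacking proteins. Summed over the 10 COPII genes, the level was 913 ± 5.93 CPM with siControl (909 to 922) and 875 ± 3.79 with siIGF2BP3 (872 to 881; SD, n = 4), without overlap. Summed over all 46, it was 5176 ± 18.4 against 5044 ± 32.8 CPM, also without overlap. With siIGF2BP2 this sum went from 5113 ± 60.3 to 4927 ± 43.2 CPM, again without overlap. With Dox it was 5233 against 5103 CPM in the sgIGF2BP2 line, with overlapping groups. In the sgAAVS1 line it was 5224 against 5231 CPM and in the sgIGF2BP3 line 5247.45 against 5247.5 CPM, overlapping too. These sums are given as a description, without a test.

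**Figure D2:**
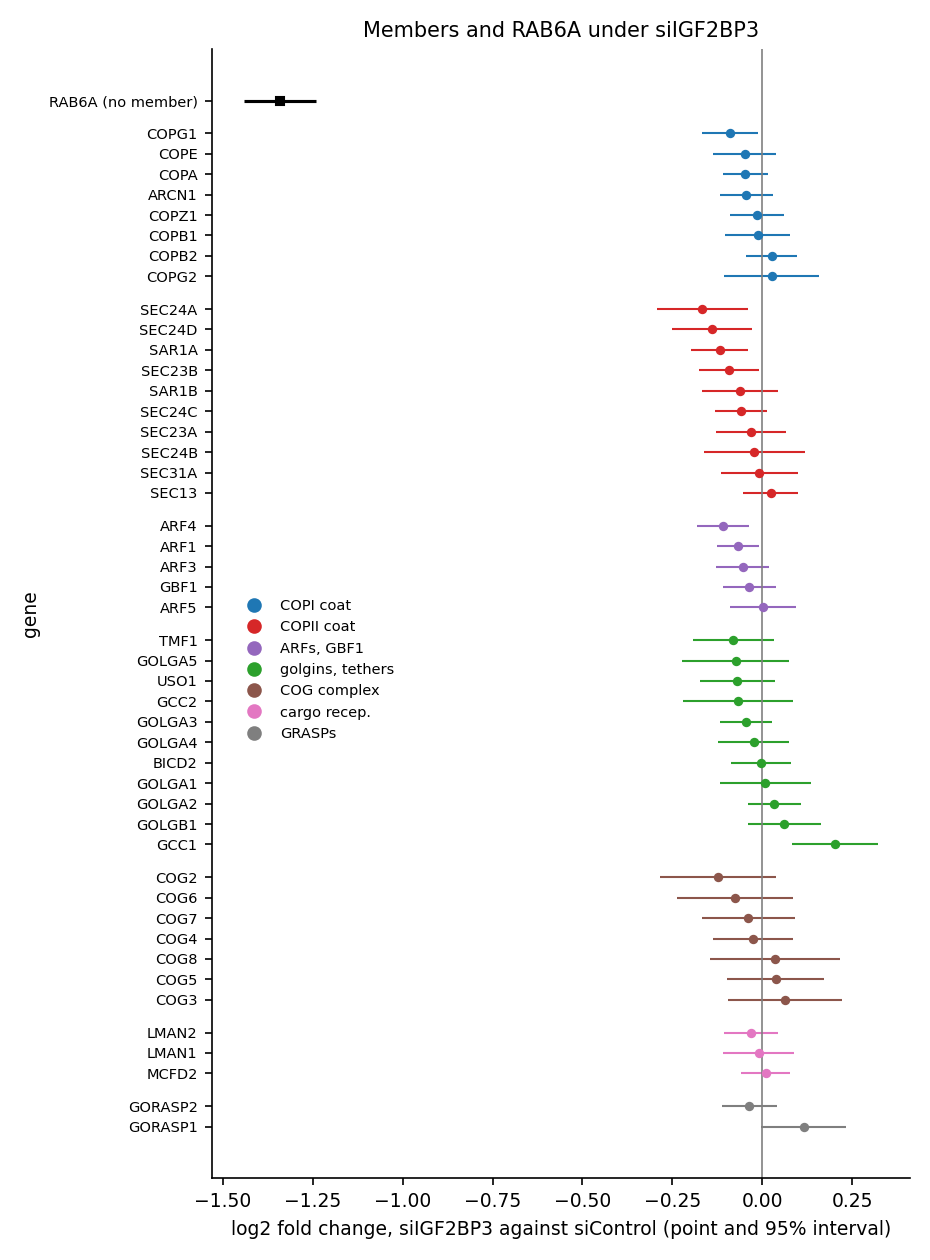
Log2 fold change with siIGF2BP3 over siControl in the sgIGF2BP3 line for RAB6A and each of the 46 members, with 95% intervals from the edgeR fit. RAB6A lies at −1.34, and the members' intervals all fall between −0.29 and 0.32.

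RAB6A did not pass the test after Cas9 induction in the same line (−0.04, edgeR adjusted p = 0.685), where IGF2BP3 mRNA was at 31.2% of its control, nor with siIGF2BP2 (−0.08, adjusted p = 0.150). Its siIGF2BP3 and siIGF2BP2 effects differed by −1.26 (edgeR adjusted p = 4.60e-25). This difference too rests on the libraries in which the fall of RAB6A was already known. The difference between the siRNA and the Dox effect on RAB6A was not tested. Whether its fall with siIGF2BP3 follows from the loss of IGF2BP3 was not tested either. Of all tested genes 0.936% were called higher and 1.40% lower with siIGF2BP3. Among 60 other genes of ER to Golgi transport, none rose and 3 fell with siIGF2BP3, with a median of −0.037. They were ARFGAP2, a GTPase-activating protein of the COPI cycle (−0.34, adjusted p = 2.47e-07), ARFGEF2, an exchange factor of ARF at the trans-Golgi (−0.30, adjusted p = 0.000253), and TMED5, a p24 cargo receptor (−0.17, adjusted p = 0.0297). These 3 are named because they were called, after their values were seen. Of 14 genes of the unfolded protein response, EDEM1, which helps to discard misfolded glycoproteins, fell by 0.24 on the log2 scale (edgeR adjusted p = 0.000325) and none rose. EDEM1 fell with siIGF2BP2 too (−0.19, adjusted p = 0.000611). The difference between its siRNA effects did not pass the test (−0.05, adjusted p = 0.623).

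In the siIGF2BP2 comparison 24 of these genes were called. With siIGF2BP2, 10 members rose and 14 fell, beside 18.4% of all tested genes higher and 18.4% lower (36.8% called in all). The COPII subunits that were called fell, the COG subunits that were called rose, and the COPI coat was split. The largest change was in BICD2, at 61.5% of its control level. The median of the 46 members was −0.049, beside 0.011 over all tested genes.

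Among the COPII genes 4 of 10 fell and none rose, beside 18.4% of all tested genes in each direction. The class median was −0.12. SEC24A (ENSG00000113615, GRCh38 chr5:134648789-134727823, plus strand) had 39.1, 39.1, 36.5 and 34.2 CPM with siControl and 27.4, 26.3, 24.7 and 31.8 CPM with siIGF2BP2. The groups did not overlap, and the mean was 74.0% of control (−0.43, SE 0.065, edgeR adjusted p = 1.36e-07). SEC23B (−0.24), SAR1A (−0.19) and SEC24D (−0.20, adjusted p = 0.00409) also fell. Summed COPII level went from 898 ± 23.8 (871 to 923) to 833 ± 26.4 CPM (814 to 870; SD, n = 4), so that the groups only just did not overlap. SEC24A shares 385 exon bases with SAR1B on the opposite strand.

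All 3 cargo receptors were called, beside 36.8% of all tested genes. MCFD2 (ENSG00000180398, chr2:46901870-46941855, minus strand), the calcium-binding partner of LMAN1, had 223, 211, 211 and 204 CPM with siControl and 162, 170, 166 and 170 CPM with siIGF2BP2, or 78.8% of control (−0.34, SE 0.034, adjusted p = 3.21e-13 by edgeR). LMAN1, its lectin, had 88.8, 91.4, 86.5 and 91.5 CPM against 79.9, 74.9, 64.6 and 78.1 CPM (−0.27, SE 0.049, adjusted p = 9.61e-06). Both members of this receptor complex were lower in every siIGF2BP2 library. LMAN2, another lectin of the pathway, rose (0.14, adjusted p = 0.00250).

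Of the 8 COPI subunits 3 rose and 3 fell, beside 18.4% of all tested genes in each direction. COPB2, the β′ subunit, which helps to bind cargo tails, had 156, 156, 155 and 162 CPM with siControl and 132, 132, 127 and 132 CPM with siIGF2BP2 (−0.27, SE 0.035, edgeR adjusted p = 5.44e-09). COPA (−0.12), the α subunit, and ARCN1 (−0.13), the δ subunit, also fell. COPG2, a γ subunit, had 24.4, 27.4, 27.5 and 26.1 CPM against 32.7, 32.4, 32.3 and 34.4 CPM, or 125% of control (0.33, SE 0.064, adjusted p = 3.11e-05). Its exons share 228 bases with MEST on the opposite strand. COPE, the ε subunit (0.17, adjusted p = 0.00115), and COPZ1, a ζ subunit (0.14, adjusted p = 0.00127), rose, with their highest values in replicate 3. Of the ARF genes with GBF1, ARF3 (0.10) and GBF1 (0.11) rose and ARF5 fell (−0.16).

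Among the golgins and coiled-coil proteins 1 of 11 rose and 4 fell, beside 18.4% of all tested genes in each direction. BICD2 (ENSG00000185963, chr9:92711363-92764812, minus strand) had 139, 134, 133 and 132 CPM with siControl and 92.6, 86.6, 70.1 and 82.1 CPM with siIGF2BP2. Every siIGF2BP2 library lay far below every siControl library, at 135 ± 3.07 against 82.9 ± 9.56 CPM (SD, n = 4; −0.70, SE 0.044, adjusted p = 5.34e-22 by edgeR). The golgin GOLGA3 had 136, 129, 134 and 138 CPM against 120, 112, 110 and 115 CPM (−0.23, adjusted p = 3.36e-07). USO1 (−0.15), the p115 tether of ER-derived vesicles, and TMF1 (−0.14) fell, and GCC2 rose (0.19). Of the 7 COG subunits 3 rose and none fell, beside the same shares of all tested genes. The class median was 0.12. COG4 had 37.8, 37.9, 36.7 and 39.6 CPM with siControl and 41.3, 42.3, 48.5 and 47.1 CPM with siIGF2BP2 (0.24, SE 0.055, adjusted p = 0.000257). COG7 had 25.2, 24.4, 25.3 and 24.6 CPM against 30.7, 30.2, 27.8 and 30.9 CPM (0.27, adjusted p = 0.000548), and COG3 rose by 0.24 (adjusted p = 0.00839). COG5 (−0.15), COG6 (−0.09), COG8 (−0.20) and COG2 (0.12) did not pass. The estimates of the 7 subunits lay on both sides of 0. Summed COG level was 157 ± 3.76 CPM with siControl and 170 ± 4.60 CPM with siIGF2BP2. Neither stacking protein was called.

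**Figure D3:**
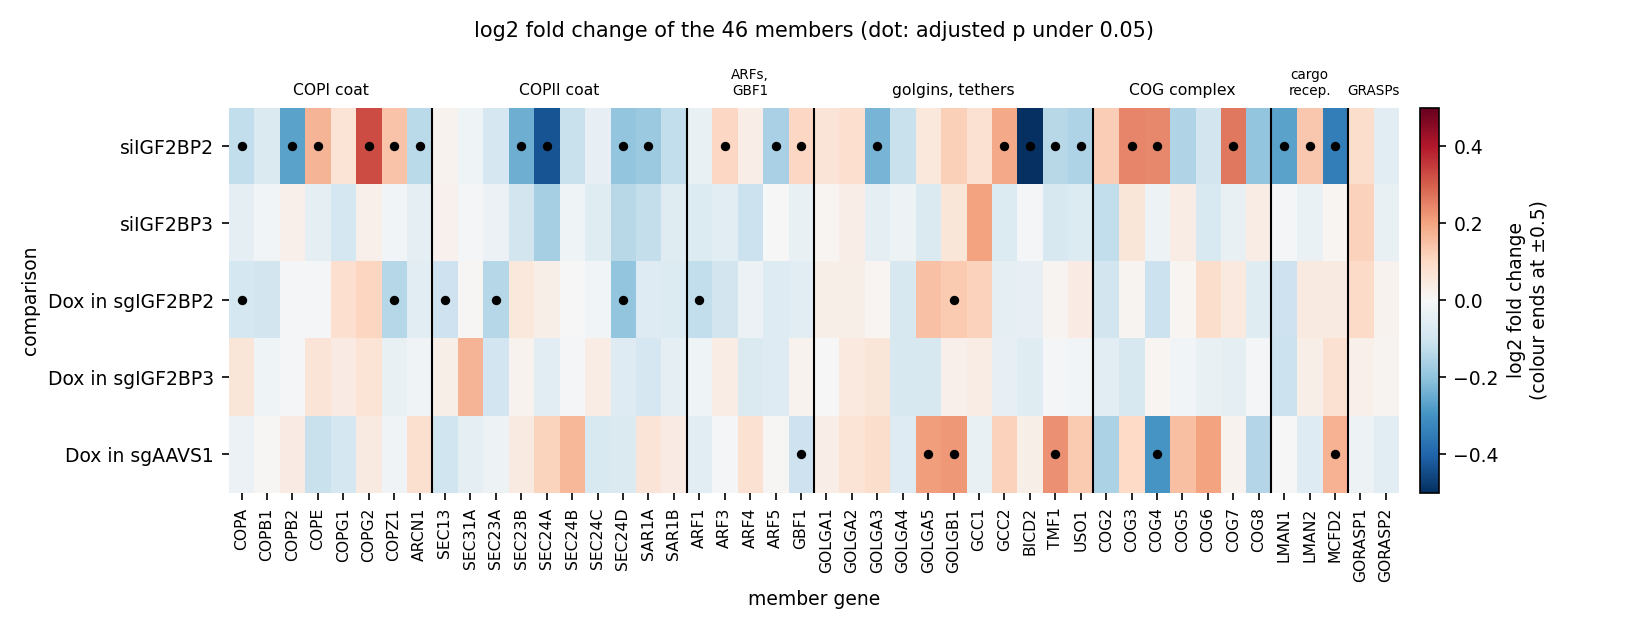
Log2 fold change of the 46 members, grouped by role, in 5 comparisons (rows: Dox against DMSO in 3 lines, and each siRNA against siControl). Colours end at ±0.5 and dots mark members with an adjusted p below 0.05. The siIGF2BP2 row holds 24 dots and the siIGF2BP3 row none.

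Replicate 3 of siIGF2BP2, the library that stood apart, held the lowest BICD2, SEC24A and LMAN1 values of its group. Without it 23 members were called, 22 of them among the 24, with BICD2 at −0.63, SEC24A at −0.38, MCFD2 at −0.34, LMAN1 at −0.21 and COG4 at 0.20. GCC2 (adjusted p = 0.0654) and TMF1 (−0.08, adjusted p = 0.290) were lost. GCC2 was also lost with DESeq2 and without any 1 of siControl replicates 1, 2 and 3 or siIGF2BP2 replicate 2, which left it at 0.10 (adjusted p = 0.340). TMF1 was also lost without any 1 of the siControl replicates or siIGF2BP2 replicate 4. Of the 24 calls, 20 held in every alternative processing and every left-out library. The others were ARF3, GBF1, GCC2 and TMF1; ARF3 lost its call without replicate 4 of either group (adjusted p up to 0.0559), and GBF1 without any 1 of siControl replicates 2 and 3 or siIGF2BP2 replicates 1, 2 and 4 (up to 0.0800). Of the 60 other transport genes 5 rose and 16 fell, beside 18.4% of all tested genes in each direction. The median of the 60 was −0.045. The SNARE YKT6 fell by 0.69 on the log2 scale (adjusted p = 2.17e-24), and SEC22C (−0.35), ARFGAP3 (−0.33), GOLPH3 (−0.26) and TMED2 (−0.24) also fell. Of the 14 unfolded protein response genes 1 rose (PDIA4) and 3 fell (EDEM1, HYOU1 and SDF2L1).

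The difference between the siRNA effects was tested as an interaction, siIGF2BP3 minus siIGF2BP2, with 9.88% of all tested genes called higher, 8.82% lower and 18.7% in all. Of the 46 members 6 were higher and 10 lower. BICD2 differed by 0.70 (SE 0.061, 95% interval 0.58 to 0.82, edgeR adjusted p = 5.92e-15). In the sgIGF2BP3 line it had 141, 142, 143 and 134 CPM with siControl and 138, 141, 138 and 141 CPM with siIGF2BP3, so these 8 libraries overlapped. MCFD2 differed by 0.35 (adjusted p = 2.68e-08), with 200, 214, 200 and 213 CPM with siControl against 205, 214, 208 and 207 CPM with siIGF2BP3. COPB2 (0.29), LMAN1 (0.26) and GOLGA3 (0.19) were also higher in this difference, and so was SEC24A (0.27, adjusted p = 0.0305), whose siIGF2BP3 estimate was itself below 0. The lower ones included COG7 (−0.30), COPG2 (−0.30), COG4 (−0.27), COPE (−0.22) and LMAN2 (−0.17), with adjusted p from 0.00692 to 0.0173. The remaining 5, ARF3, COPZ1, COPG1, ARF4 and GBF1, were lower too. The COPII genes SEC23B, SAR1A and SEC24D, which fell with siIGF2BP2, did not pass this test (SEC23B 0.15, adjusted p = 0.0610). Without replicate 3 of siIGF2BP2 13 members were called, 12 of them among the 16; LMAN2 was lost then and without sgIGF2BP3 siControl replicate 3 (adjusted p from 0.0708 to 0.0856). SEC24A lost its call when any 1 of 7 libraries was left out (adjusted p up to 0.0978), COPG1 with any of 11, ARF4 with any of 10, GBF1 with any of 12, COPZ1 with any of 5 and ARF3 with either of 2.

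**Figure D4:**
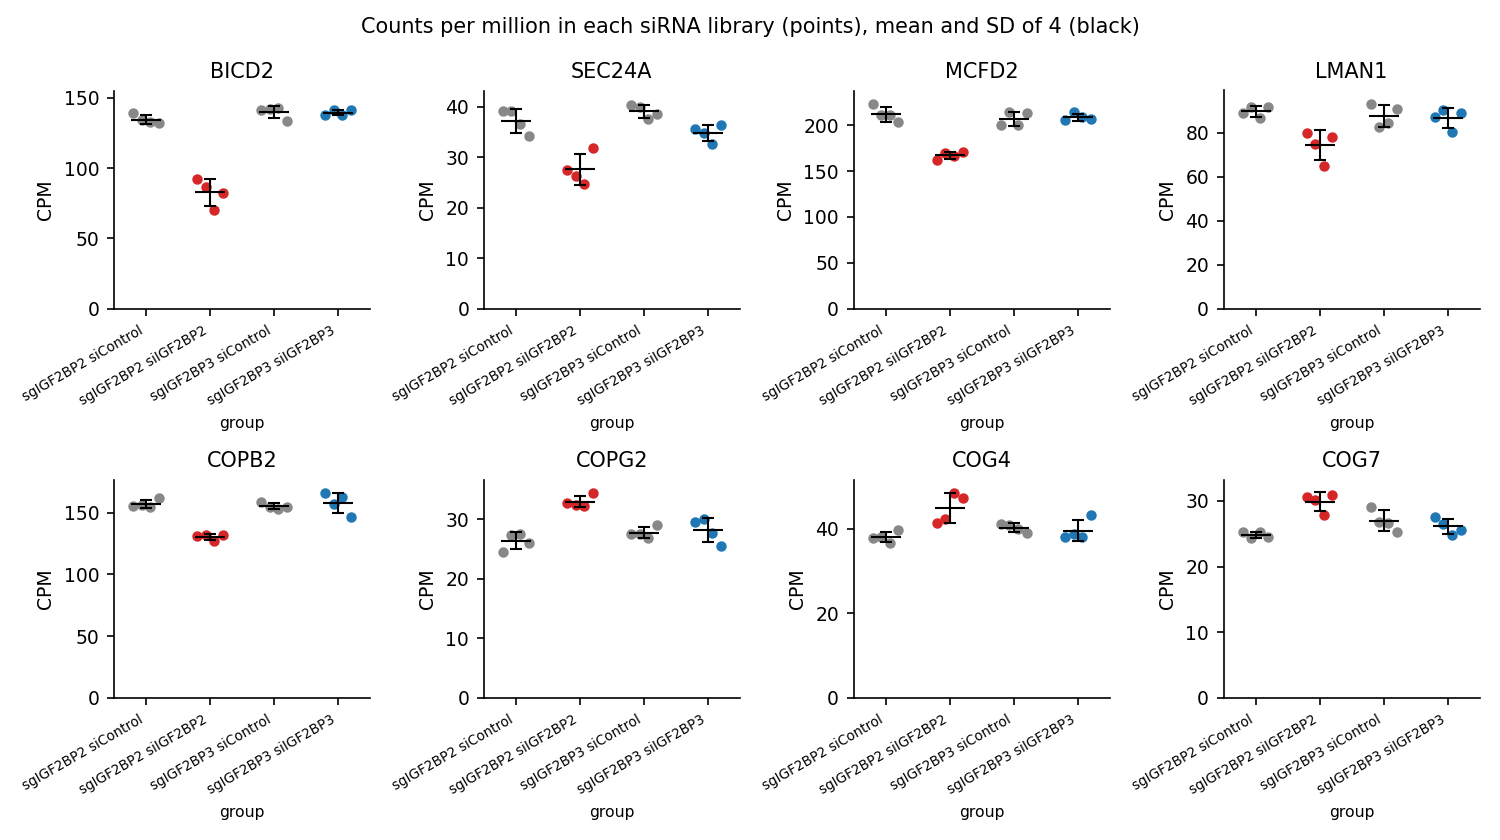
Level, in CPM, of BICD2, SEC24A, MCFD2, LMAN1, COPB2, COPG2, COG4 and COG7 in each of the 16 siRNA libraries; lines show the mean and bars the SD of the 4 libraries of a group. BICD2 drops from 135 ± 3.07 to 82.9 ± 9.56 with siIGF2BP2, and its siControl and siIGF2BP3 libraries overlap in the sgIGF2BP3 line.

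For paralogs that can fill the same place in a coat, the share of each in the family's summed level per kilobase of exon (CPM per kb, not raw counts) was computed. SEC24A made up 9.61% ± 0.286 of the summed SEC24 level per kb with siControl and 7.59% ± 0.624 with siIGF2BP2 (SD, n = 4), with ranges of 9.20 to 9.86 and 6.92 to 8.41. SEC24C, the main SEC24 at 69.1% and 71.8%, had overlapping groups. The SEC23A share of SEC23 went from 25.5% to 27.7% (24.7 to 26.2 against 26.7 to 28.6), while SEC23B was the paralog called lower. COPG1 went from 85.9% to 83.6% of COPG with COPG2 called higher, and ARF1 from 84.8% to 83.5% of ARF1 and ARF3 together, both without overlap. The SAR1A share (82.9% and 82.2%) overlapped. With siIGF2BP3 the SEC24A share was 9.75% and 9.13%, and the SEC23A share 25.0% and 25.9%, both overlapping. With Dox the SEC23A share went from 23.6% to 21.2% in the sgIGF2BP2 line and from 23.6% to 22.2% in the sgIGF2BP3 line, without overlap in either; in the sgAAVS1 line it was 22.9% with DMSO and 22.2% with Dox, with overlapping groups. These shares are described and not tested; ARF1, SAR1A and SEC24A have pseudogene copies that can share reads.

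**Figure D5:**
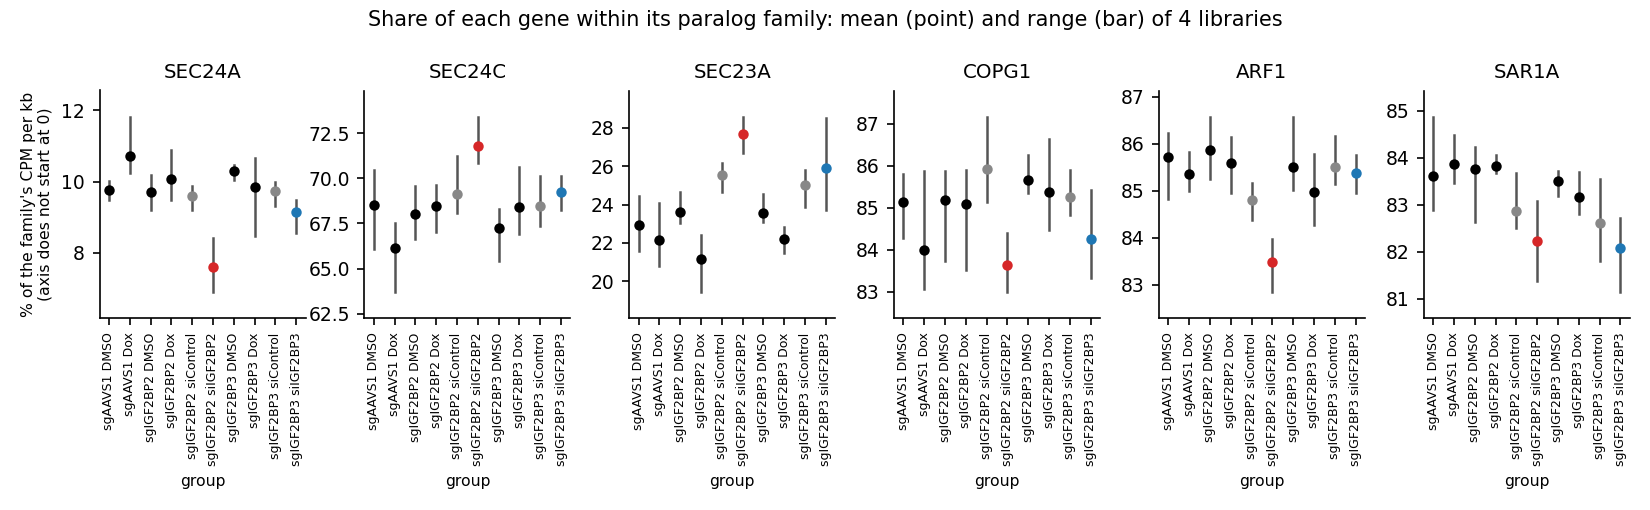
Share of SEC24A and SEC24C among 4 SEC24 genes, and of SEC23A, COPG1, ARF1 and SAR1A within their paralog pairs, in percent of the family's summed CPM per kb in the 10 groups; points are means and bars the range of 4 libraries, and the axes do not start at 0. The SEC24A share is lowest with siIGF2BP2, at 6.92 to 8.41%.

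With Dox in the sgIGF2BP2 line IGF2BP2 mRNA was at 39.7% of control, and 7 members were called. None of these 7 was called in the difference from the Dox effect in sgAAVS1, described below. With Dox 1 member rose and 6 fell, beside 10.0% of all tested genes higher and 10.4% lower (20.4% in all). ARF1 fell from 721, 733, 717 and 733 CPM with DMSO to 674, 652, 680 and 659 CPM with Dox (−0.12, SE 0.030, edgeR adjusted p = 0.00118). COPZ1 fell from 167, 150, 151 and 161 CPM to 140, 145, 146 and 140 CPM (−0.14, adjusted p = 0.00371). For both genes every Dox library was below every DMSO library. SEC24D fell with overlapping groups (−0.20, adjusted p = 0.00788), as did SEC23A (−0.14, adjusted p = 0.0322). COPA (−0.09) and SEC13 (−0.11), of the outer COPII cage, fell, and the giant golgin GOLGB1 rose (0.13, edgeR adjusted p = 0.0452). GOLGB1 also rose with Dox in the sgAAVS1 line (0.22). The median of the members was −0.0064, beside 0.0077 over all tested genes. Without replicate 2 of the Dox group, the library that stood apart, 4 members were called: ARF1, COPZ1, GOLGB1 and ARF5 (−0.13, adjusted p = 0.0361). COPA (adjusted p = 0.0912), SEC13 (0.0747), SEC23A (0.113) and SEC24D (0.0738) were then not called. Other single libraries also ended these calls: DMSO replicates 1, 3 and 4 or Dox replicate 3 that of COPA, DMSO replicates 1, 2 and 4 or Dox replicates 1 and 4 that of SEC13, and DMSO replicates 1 and 3 or Dox replicate 3 that of SEC23A. GOLGB1 lost its call when any 1 of DMSO replicates 2, 3 and 4 or Dox replicates 1, 3 and 4 was left out (adjusted p up to 0.179).

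With siIGF2BP2 and with Dox in the sgIGF2BP2 line alike, 3 members were called, 12.5% of the 24 and 42.9% of the 7. Over all tested genes 9.19% were called in both, 25.0% of those called with siIGF2BP2 and 45.1% of those called with Dox. COPA and SEC24D were lower in both comparisons, while COPZ1 rose with the siRNA and fell with Dox. Without Dox replicate 2, the Dox calls of COPA (edgeR adjusted p = 0.0912) and SEC24D (0.0738) were lost, and that of COPZ1 held. BICD2, the largest siRNA change, was at −0.04 with Dox (adjusted p = 0.551; 95% interval −0.12 to 0.04). MCFD2 (0.04), SEC24A (0.03), COG7 (0.05), COPG2 (0.11) and COG4 (−0.11) did not pass with Dox either. These 2 comparisons share no libraries, and they differ in method, time and agent; the difference between their effects was not tested.

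In the sgIGF2BP3 line Dox called no member, beside 1.64% of all tested genes higher and 1.01% lower (2.64% in all), and 4 members were at an unadjusted p under 0.05, beside 16.6% of all tested genes. The nearest was SEC31A, of the outer COPII cage, with 53.8, 53.0, 54.5 and 55.0 CPM with DMSO and 61.2, 57.0, 64.2 and 61.1 CPM with Dox (0.17, SE 0.053, edgeR adjusted p = 0.0650). Its groups did not overlap. LMAN1 (−0.11), MCFD2 (0.08) and SAR1A (−0.08) followed, with adjusted p from 0.219 to 0.252. The members' median was −0.0099, beside 0.0027 over all genes. Of the other transport genes GOLGA7, a partner of a palmitoyl transferase, rose (0.28), and KDELR2, a receptor that returns ER proteins (−0.21), and RINT1, a tether of vesicles at the ER (−0.18), fell. None of the 14 unfolded protein response genes was called.

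Dox also changed members in the sgAAVS1 line, whose guides target the control locus. There 4 members rose and 2 fell, beside 7.25% of all tested genes higher and 8.68% lower (15.9% in all). MCFD2 had 212, 214, 210 and 214 CPM with DMSO and 241, 235, 242 and 241 CPM with Dox (0.17, SE 0.033, edgeR adjusted p = 9.64e-05). COG4 had 41.9, 40.2, 42.4 and 36.6 CPM against 32.5, 35.3, 34 and 29.5 CPM (−0.30, SE 0.058, adjusted p = 0.000107). Neither gene's groups overlapped. The golgins GOLGB1 (54.7, 55.5, 56.2 and 55.8 CPM against 63.5, 66.2, 64.8 and 63.9 CPM; 0.22, adjusted p = 0.00119) and TMF1 (0.23, adjusted p = 0.00197) rose without overlap. GOLGA5 rose with overlapping groups (0.21, adjusted p = 0.0454) and GBF1 fell (−0.10, adjusted p = 0.0476). GOLGA5 lost its call when any 1 of DMSO replicates 1 and 2 or Dox replicates 1, 3 and 4 was left out (adjusted p up to 0.188), and GBF1 when any 1 of the libraries other than DMSO replicate 1 was (up to 0.117). The members' median was 0.013, beside 0.0044 over all genes. Of the other transport genes 5 rose and 3 fell, and of the unfolded protein response genes 1 rose and 3 fell. In the sgIGF2BP2 line these numbers were 4 and 3, and 3 and 1, beside 10.0% of all tested genes higher and 10.4% lower. GOLGA7 rose with Dox in the sgAAVS1 and sgIGF2BP2 lines too (0.47 and 0.33), and fell by 0.24 on the log2 scale with siIGF2BP2.

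The Dox effect in each targeted line was then compared with that in sgAAVS1 by an interaction term; both comparisons use the same sgAAVS1 libraries. For sgIGF2BP2 minus sgAAVS1, 4.01% of all tested genes were called higher and 2.97% lower (6.97% in all), and 1 member was higher, COPG1 (0.17, SE 0.055, edgeR adjusted p = 0.0428). COPG1 had 163, 186, 169 and 163 CPM in the sgAAVS1 DMSO group, 159, 161, 161 and 159 with Dox there, 165, 177, 166 and 165 with DMSO in sgIGF2BP2 and 184, 177, 171 and 181 with Dox there. For sgIGF2BP3 minus sgAAVS1, 4.53% of all genes were higher and 3.25% lower (7.78% in all), and 2 members were called. COG4 was higher (0.30, SE 0.081, adjusted p = 0.0115), and TMF1 was lower (−0.24, adjusted p = 0.0490). In the sgIGF2BP3 line COG4 had 37.4, 36.6, 39.1 and 36.2 CPM with DMSO and 37.0, 37.5, 38.3 and 37.2 CPM with Dox. The members' medians were −0.069 and −0.027 in these differences, beside −0.0014 and −0.00098 over all genes. COPG1 lost its call in 12 of 21 alternatives, 11 of them a left-out library (adjusted p up to 0.172), and TMF1 in 11 of 21 (up to 0.170). Of the other transport genes none was higher and 1 lower (TFG) in the sgIGF2BP2 difference, and 2 higher and 5 lower in the sgIGF2BP3 difference; of the unfolded protein response genes 0 and 1 were called.

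The members were also described by whether their windows held an ACGTG element. With siIGF2BP2 3 of the 20 members with TGACGTG or ACGTGGC rose and 6 fell (median −0.039), and 6 of the 21 without them rose and 6 fell (median −0.093). Of all tested genes 18.4% were called higher and 18.4% lower with siIGF2BP2. With siIGF2BP3 the medians were −0.040 and −0.015, with no call in either set, beside 2.34% of all tested genes called. With Dox in the sgIGF2BP2 line none of the 20 rose and 4 fell, against 1 and 1 of the 21, beside 10.0% of all tested genes higher and 10.4% lower. Of those 4, COPA, SEC13 and SEC23A were not called without Dox replicate 2, and ARF1 was. With Dox in the sgAAVS1 line 1 of the 20 rose and 1 fell, against 3 and 1 of the 21. Of all tested genes 7.25% were higher and 8.68% lower there. GOLGA1 and GOLGA5, whose joined element is printed above, were not called with either siRNA, and GOLGA5 rose with Dox in the sgAAVS1 line. SAR1A fell with siIGF2BP2, and SEC13 fell with Dox in the sgIGF2BP2 line. COPG1 was lower in the siRNA difference and higher in the sgIGF2BP2 minus sgAAVS1 Dox difference. These counts are descriptive and were not tested.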

How the data were processed

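The authors deposited a table of raw counts per gene and library; per the submitters' processing notes bcl2fastq 2.20.0.422, STAR 2.7.5c and hg38 were used. The counting tool, its annotation and its use of strand are not given in the sources used here. Names, exon lengths and overlaps came from GENCODE 29, and 18 of 46 members share exon bases with another gene of the table. The members and gene lists were chosen with earlier results of these data known.

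Genes were kept by filterByExpr in edgeR 4.0.16 (R 4.3.3); 8 comparisons were fitted with the quasi-likelihood test, with 1 coefficient per group over all 40 libraries and TMM scaling, and p-values were adjusted by Benjamini-Hochberg over all 11428 tested genes. A call is an adjusted p below 0.05. The SE was taken from the fold change and the F statistic. The steps were tested on simulated data. Alternatives were DESeq2 1.42.0, RLE size factors, no filter, each comparison's own groups alone, a replicate block and leaving out each library.

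The members named are those called with siIGF2BP3 and the 8 with the smallest p there, in other comparisons up to 5 in each direction, the highest and lowest levels, and paralogs; further members are named with their values where a class is described, after those values were seen. The paired check of replicate numbers is in the closing section.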

Additional observations from a re-analysis of the deposited data

Results flagged for a closer look

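In 3 of 60 gene and group combinations examined, a library lay far from the other 3 of its group; chance gives about 1 in 20. MCFD2 was at 235 CPM in replicate 2 of sgAAVS1 with Dox, with the others at 241 to 242. COPZ1 was at 151 CPM in replicate 3 of sgIGF2BP2 siControl, with the others at 156 to 157. COPB2 was at 127 CPM in replicate 3 of siIGF2BP2, with the others at 132.

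The siIGF2BP3 and siIGF2BP2 effects differed by the interaction test for 16 members, of which the 5 with the smallest p in each direction follow. On the log2 scale BICD2 differed by 0.70, MCFD2 by 0.35, COPB2 by 0.29, LMAN1 by 0.26 and GOLGA3 by 0.19, as the siIGF2BP3 effect minus the siIGF2BP2 effect. The difference was below 0 for COPE (−0.22), COG4 (−0.27), COG7 (−0.30), COPG2 (−0.30) and LMAN2 (−0.17). Between Dox effects, COPG1 differed by 0.17 (sgIGF2BP2 minus sgAAVS1), and COG4 by 0.30 and TMF1 by −0.24 (sgIGF2BP3 minus sgAAVS1).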

How the results depend on the processing

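Over the alternatives, 734 of 880 repeats of a member's call kept it, 146 lost it and none turned its direction; 36 of 56 calls were never lost. Fitted on its own groups alone, siIGF2BP3 called 3 members (ARF4, GCC1 and SAR1A), Dox in sgIGF2BP2 3, Dox in sgIGF2BP3 1 (SEC31A), and the differences from sgAAVS1 0 (sgIGF2BP2) and 4 (sgIGF2BP3). DESeq2 called 1 with siIGF2BP3 (GCC1, adjusted p = 0.0422) and 2 in the sgIGF2BP2 difference, as did no filter there (2). Leaving out each library in turn gave 4 to 11 calls for Dox in sgAAVS1 (11 without DMSO replicate 4), 4 to 6 for Dox in sgIGF2BP2, 0 to 1 for siIGF2BP3 (GCC1 without siIGF2BP3 replicate 1, adjusted p = 0.0354), 21 to 25 for siIGF2BP2, 12 to 16 for the siRNA difference, 0 to 2 for the sgIGF2BP2 difference and 1 to 7 for the sgIGF2BP3 difference (7 without sgAAVS1 DMSO replicate 4). The cause was not tested. GBF1 and GOLGA5 (Dox in sgAAVS1) lost their calls in 9 and 7 of 13 alternatives, and GOLGB1 (Dox in sgIGF2BP2) in 10. With a replicate block the counts were 6, 7, 0, 24, 0, 16, 1 and 2, equal to those without it; same-numbered libraries correlated at −0.0896 to 0.0393, so the numbers do not pair them, and 2 libraries correlated best with their own number.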
